A study of Mus musculus with 6 samples.

Results

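The glutathione, thioredoxin and peroxiredoxin genes were compared between whole testes of wild-type (Wt) mice and of Dazap1 mutants (Fn). Members were taken by symbol. They are the soluble glutathione S-transferases of the alpha, kappa, mu, omega, pi, theta and zeta classes (Gsta, Gstk, Gstm, Gsto, Gstp, Gstt and Gstz), the microsomal transferases (Mgst), the numbered glutathione peroxidases (Gpx) and peroxiredoxins (Prdx), and every symbol that begins with Txn or Glrx. Of 18193 genes that a probe set names alone, 56 were members, and 53 of these were bright enough to be tested, among 13447 genes tested in all. The values are signals of a one-colour Affymetrix array (Mouse Genome 430 2.0), a linear brightness per probe set, and the brightest probe set stands for a gene.

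Each genotype had 3 samples, numbered replicates, of testes at postnatal day 21, from mice of a mixed C57BL/6 and 129 background. Fn mice are homozygous for the floxed-with-neo allele of Dazap1, which encodes an RNA-binding hnRNP protein, and this allele makes an altered protein with an inserted segment between its RNA-binding domains. Most such homozygotes die around birth, so the Fn samples come from survivors, which grow poorly. The labels call the samples biological replicates, the sources used here do not say how many animals stand behind each, and p-values measure only the spread between these samples. In whole testes, fewer cells of a type and less RNA per cell cannot be told apart. The paper's authors were concerned that Fn spermatocytes at this age could lag behind those of Wt, given the mutants' poor growth. Such a delay cannot be told apart here from other effects of the genotype. Dazap1 itself, read by 1 probe set, had signals of 4323, 4462 and 5046 in Wt and 2538, 2735 and 2819.8 in Fn. The genotypes did not overlap (log2 change -0.77, adjusted p = 6.7e-05). This cannot verify the labels, because the allele still makes a protein and no change in its RNA level is given. The sources used here do not say whether that probe set reads the altered stretch of the gene. Array medians were 86.3 to 89.9 in Wt and up to 105.2 in Fn, Spearman correlations were 0.951 to 0.961 within and 0.897 to 0.914 between genotypes, and the number of arrays limits the precision.

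Cells keep their proteins and lipids reduced with a pair of thiol systems. In the first, glutathione is used by glutathione peroxidases to remove peroxides and by glutathione S-transferases to tag reactive compounds, and glutaredoxins use it to undo its own links to proteins. In the second, thioredoxins pass electrons from thioredoxin reductases to targets that include the peroxiredoxins, a family of peroxide-removing enzymes. The testis is known for germ cell versions of both: the sperm thioredoxins Txndc2 and Txndc8, the thioredoxin-glutathione reductase Txnrd3, and Gpx4, which protects membrane lipids and is built into the mitochondrial capsule of sperm.

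Several classes held both genes that fell and genes that rose. At an adjusted p under 0.05 (limma's moderated linear model on log2 signals, Benjamini-Hochberg over all probe sets tested), 12 of 53 members fell in Fn testes, 30 rose and 11 did not pass. These are 22.6% and 56.6% of the members tested, beside 24.7% lower and 44.9% higher among all genes tested. The share of lower members was thus close to that of all genes. The median log2 change of the members, Fn minus Wt, was 0.62, and that of all genes was 0.32, so a rise of about 0.32 is the middle of these arrays and not particular to a gene. Calls were made against 0 and not against that middle. The whole 95% interval lay above it for 28 of the 30 higher members. For Txnrd1, Glrx2, Txn2, Txndc12 and Gstz1, which did not pass, the whole interval lay below it. Centring each array on its median gave a general shift of 0.17, and it was 0.25 after quantile normalization. With median centring 29 members (54.7%) and 33.1% of all genes were higher, and 12 members (22.6%) and 27.4% of all genes were lower. Of the members that passed, 4 did so with an Fn mean under the filter level of 48.0, namely Txndc8, Gstt4, Gpx6 and Txndc2, and such genes had to differ to be tested at all. Among genes with both genotypes at or over that level, 8 of 49 members were lower and 30 were higher (16.3% and 61.2%), beside 23.4% and 46.5% of 12637 genes.

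The largest falls exceeded the largest rises. With a change of at least 1 on the log2 scale and no overlap between the genotypes also asked for, 10 members were lower (18.9%, beside 13.8% of all genes) and 7 were higher (13.2%, beside 11.4%). Changes ran from -4.97 for Txndc8 to 1.20 for Gpx8. The count of large rises depended on the scaling. With median centring, of the 7 only Gpx7 (1.02) and Gpx8 (1.04) stayed over 1. Gstm6, Gsta3, Gsto1, Txn1 and Gsta2 were then at 0.99, 0.97, 0.95, 0.90 and 0.90, while all 10 falls stayed beyond -1. All-gene shares of large changes were not computed for that scaling. Of the 10, Txndc8, Gstt4, Gpx6 and Txndc2 are the members with an Fn mean under the filter level. Among genes with both genotypes at or over it, 6 of 49 members were lower and 7 higher by this rule (12.2% and 14.3%), beside 11.7% and 11.2% of all such genes, so the share of large falls was then close to that of all genes.

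**Figure D1:**
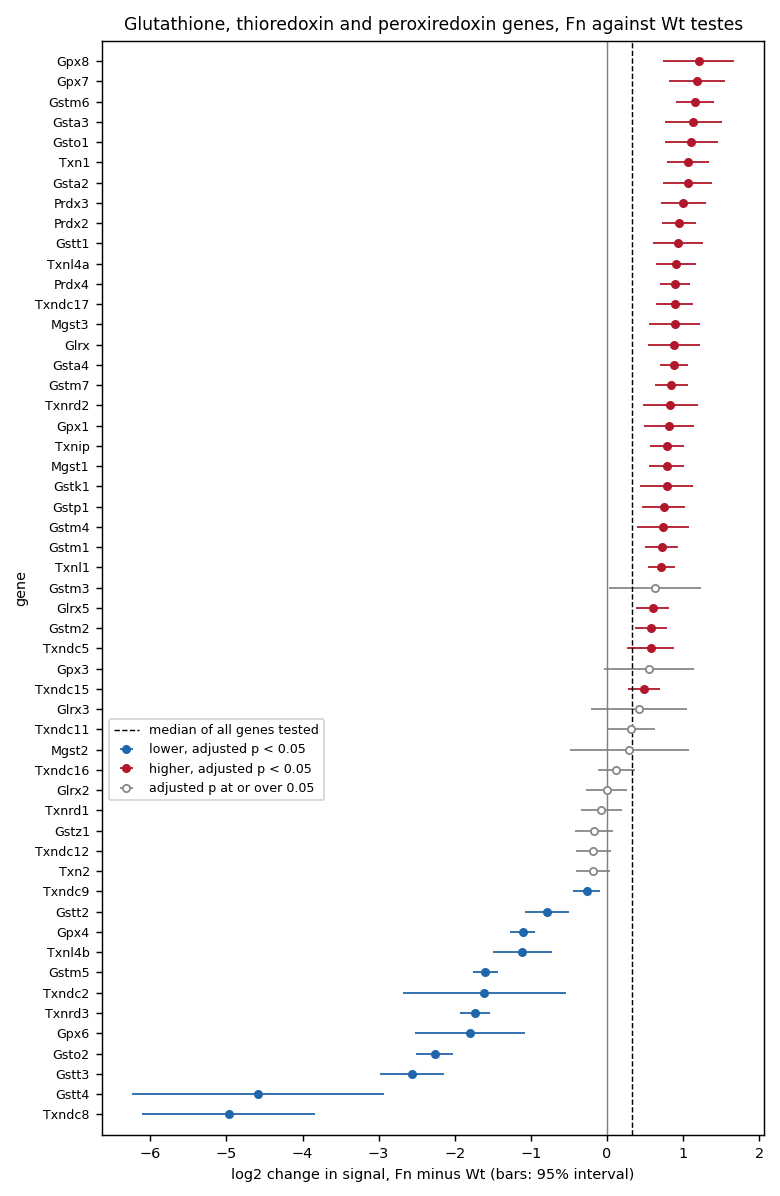
Change on the log2 scale (Fn minus Wt) for the 53 members tested, in order of size, with 95% intervals from 3 arrays per genotype. Solid dots are genes under the adjusted p threshold of 0.05, hollow dots the rest, the solid line marks 0 and the broken one the all-gene median of 0.32. The points run from -4.97 for Txndc8 to 1.20 for Gpx8, with a long tail of falls and a narrow band of rises.

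The sperm thioredoxins were lower in Fn testes. Txndc8, a thioredoxin of spermatids, gave 595, 318 and 504 in Wt and 34.8, 11.4 and 7.8 in Fn. All Fn signals were under the filter level, far from the lowest Wt array. The log2 change was -4.97 (standard error, SE, 0.508, adjusted p = 3.6e-05). Its Fn mean is too dim to give a fold, and against the filter level the fall was at least 9.51-fold. Txndc2, a thioredoxin of the sperm tail sheath, had signals of 212, 51.7 and 121 in Wt and 35.6, 44.5 and 29.3 in Fn. The genotypes did not overlap, but Wt replicate 2 lay close to the Fn arrays. The log2 change was -1.61 (adjusted p = 0.015), which against the filter level is at least 2.29-fold. It was -1.14 with an adjusted p of 0.064 without Wt replicate 1, and -1.54 with an adjusted p of 0.054 without Wt replicate 3.

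Among the thioredoxin reductases, which recharge thioredoxin with NADPH, Txnrd3 fell, Txnrd2 rose and Txnrd1 did not pass. Txnrd3, which carries a glutaredoxin domain and is rich in testis, had signals of 7569, 7929 and 8696 in Wt and 2234, 2647 and 2406 in Fn. All 3 Fn arrays were clearly lower, and the log2 change was -1.73 (standard error 0.0892, adjusted p = 4.8e-07). Its other probe sets fell alike, with log2 changes of -1.87 and -1.93. Txnrd2, the mitochondrial reductase, had signals of 294, 218 and 225 in Wt and 409, 409.8 and 482 in Fn, with no overlap. Its log2 change was 0.83 (adjusted p = 0.0016), and 2 further probe sets gave 0.83 and 0.81. Txnrd1, the cytosolic reductase, had Wt signals of 1296, 1539 and 1434 and Fn signals of 1464, 1165 and 1436, which overlapped (log2 change -0.07, 95% interval -0.34 to 0.19, adjusted p = 0.60).

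Of the thioredoxins of the whole cell, Txn1 rose and Txn2 did not pass. Txn1, the cytosolic thioredoxin, had signals of 3419.9, 3560.2 and 2857 in Wt and 6914, 5822 and 7854 in Fn, and all Fn values were above all Wt values. It rose by 1.06 on the log2 scale (standard error 0.122, adjusted p = 7.1e-05), whereas a dim second probe set had a log2 change of 0.00 (adjusted p = 0.99). Txn2, the mitochondrial thioredoxin, had a log2 change of -0.19 (95% interval -0.41 to 0.04, adjusted p = 0.13). All its Fn signals lay under its Wt signals by that probe set, and its other probe sets gave 0.04 and -0.13. Txn2 passed as lower with the arrays centred on their 75th percentiles. Txnip, which binds and inhibits thioredoxin, had signals of 3765, 3232 and 2993 in Wt and 5491, 6130 and 5563 in Fn and rose by 0.79 (adjusted p = 1.1e-04). Txnl1, a cytosolic thioredoxin-like protein, rose by 0.71 by its brightest probe set.

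Txnl4a and Txnl4b carry the thioredoxin fold but are proteins of the spliceosome, and they moved in opposite directions. Txnl4b had signals of 671, 586 and 865 in Wt and 327, 371 and 278 in Fn, with no overlap, a log2 change of -1.11 (adjusted p = 4.3e-04). Txnl4a had signals of 1137, 1046 and 876 in Wt and 1805, 2033 and 1848 in Fn, a log2 change of 0.90 (adjusted p = 1.5e-04).

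The other TXNDC genes encode proteins with a thioredoxin domain and mixed duties. Txndc17, a cytosolic relative of thioredoxin, rose by 0.89 on the log2 scale, and Txndc5 and Txndc15 rose by 0.57 and 0.48. Txndc5 is a protein disulphide isomerase of the endoplasmic reticulum. Txndc9, a partner of the TRiC chaperonin, had Wt signals of 3672, 3593 and 3336 and Fn signals of 2985, 3023 and 2806. The genotypes did not overlap, with a log2 change of -0.27 (adjusted p = 0.015), but it did not pass under 5 of 17 other settings, a stricter p threshold among them. Txndc11, Txndc12 and Txndc16, all of the endoplasmic reticulum, did not pass, with log2 changes of 0.31, -0.18 and 0.12. Txndc11 passed as higher with its probe sets averaged, and Txndc12 as lower with the arrays centred on their 75th percentiles.

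Glutathione S-transferases of the theta class mostly fell. Gstt3 had signals of 1166, 1104 and 1630.2 in Wt and 212, 266 and 181 in Fn. The genotypes were far apart, with a log2 change of -2.56 (SE 0.19, adjusted p = 4.3e-06). Gstt4 had Wt signals of 486, 313 and 462 and Fn signals of 17.9, 60.9 and 4.7, so only Fn replicate 2 was over the filter level. The log2 change was -4.58 (adjusted p = 5.1e-04), or at least 8.59-fold against that level, and ran from -5.49 to -3.50 over 16 other settings. Gstt2, with 1698, 1778 and 2120.4 in Wt and 1105, 1203 and 930.3 in Fn, fell by 0.79. Gstt1 went the other way, from 318, 393 and 302 in Wt to 664, 572 and 687 in Fn, a log2 change of 0.93 (adjusted p = 4.4e-04).

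In the omega class, whose enzymes reduce oxidised vitamin C among other substrates, both genes passed in opposite directions. Gsto2 had signals of 4624, 4869 and 5103 in Wt and 995, 1156 and 900.5 in Fn. The Wt arrays were tightly grouped, and the log2 change was -2.26 (standard error 0.107, adjusted p = 3.0e-07). Gsto1 had 293, 262 and 312 in Wt and 638, 520.2 and 721 in Fn, a log2 change of 1.11 (adjusted p = 2.2e-04).

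In the mu class 1 gene fell and 5 of 7 rose. Gstm5, described in brain and testis, had signals of 24180.5, 22883 and 22362 in Wt and 7004, 8366 and 7601 in Fn. No Fn array reached a level near the Wt arrays, and the log2 change was -1.60 (standard error 0.0738, adjusted p = 2.9e-07). Gstm6 had 3186, 3260.4 and 2510.5 in Wt and 6428, 6225 and 7175 in Fn, a log2 change of 1.15 (adjusted p = 2.3e-05). Gstm7, Gstm4, Gstm1 and Gstm2 rose by 0.84, 0.73, 0.72 and 0.58, and all 4 probe sets of Gstm1 were higher. The dim Gstm3 had a log2 change of 0.62 (adjusted p = 0.069). It passed as higher under 5 alternatives, among them leaving out Wt replicate 2 or Fn replicate 2. The mu genes are close relatives whose probes may share transcripts, which was not tested, so the values of single mu genes are uncertain.

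All 3 alpha class members, whose enzymes remove lipid peroxides and their products, rose. Gsta3 had signals of 512, 434 and 323 in Wt and 862, 893 and 985 in Fn, a log2 change of 1.13 (adjusted p = 3.2e-04). Gsta2 had 2728, 2677 and 1913 in Wt and 5258, 5517 and 4344 in Fn, and rose by 1.06. Gsta4, which acts on the lipid aldehyde 4-hydroxynonenal, had 5274, 5655 and 4779 in Wt and 9398, 9159 and 10219 in Fn, and rose by 0.88 (adjusted p = 1.9e-05). In none of them did the genotypes overlap. Of the remaining soluble classes, Gstk1 of peroxisomes and mitochondria rose by 0.78 and Gstp1 by 0.74, with Fn signals of 5538, 4790.3 and 7101 for the latter against 3538, 3506 and 3254 in Wt. Gstz1, an enzyme of tyrosine breakdown, did not pass (log2 change -0.17), but did as lower after quantile normalization or centring on 75th percentiles. The microsomal transferases Mgst1 and Mgst3 rose by 0.79 and 0.89, and the dim Mgst2 did not pass. Mgst1 had signals of 6569, 5975 and 5145 in Wt and 10030.3, 9238 and 11164 in Fn by its bright probe set, while its other probe set was near background.

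**Figure D2:**
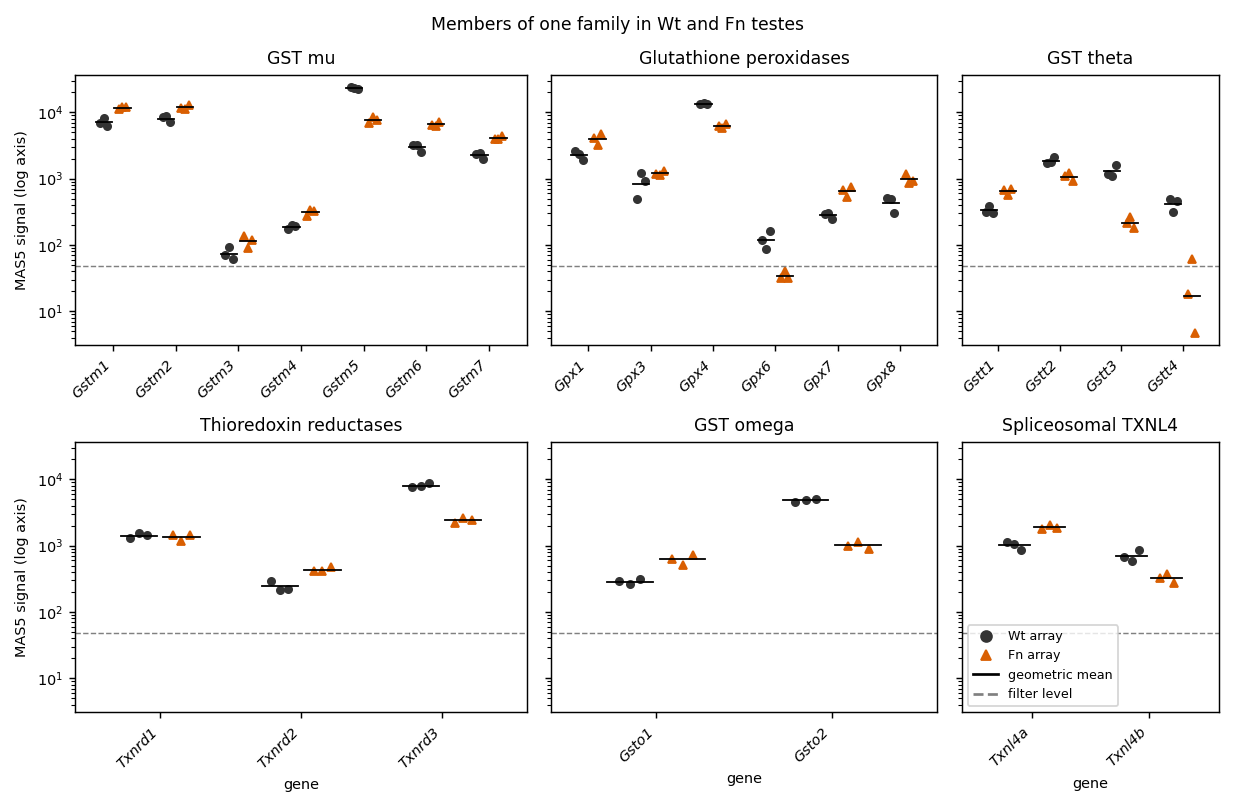
MAS5 signal on a log axis shown per array, Wt as circles and Fn as triangles (3 each), of testes at postnatal day 21, for tested members of 6 groups. Ticks mark each genotype's geometric mean, with the filter level of 48.0 as a broken line, and heights of different genes are not comparable because their probes differ. Gstm5, Gpx4, Gpx6, Gstt2, Gstt3, Gstt4, Txnrd3, Gsto2 and Txnl4b lie lower in Fn. Gstm1, Gstm2, Gstm4, Gstm6, Gstm7, Gpx1, Gpx7, Gpx8, Gstt1, Gsto1, Txnrd2 and Txnl4a lie higher, and Gstm3, Gpx3 and Txnrd1 overlap.

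Glutathione peroxidases also split. Gpx4 had signals of 13127, 13749 and 13154 in Wt and 6195, 5692 and 6702 in Fn. The Wt values were nearly equal and the Fn values were all below them, with a log2 change of -1.11 (SE 0.0729, adjusted p = 2.0e-06), and its second probe set gave -1.31. Gpx6, described in the olfactory epithelium, had Wt signals of 120.1, 85.9 and 163 and Fn signals of 31.2, 40.8 and 31.3, all of the latter under the filter level. Against that level the fall was at least 2.48-fold (log2 change -1.80, adjusted p = 9.7e-04). Gpx7 and Gpx8, peroxidases of the endoplasmic reticulum, rose. Gpx8 had signals of 504, 491 and 305 in Wt and 1179, 854 and 916 in Fn, a log2 change of 1.20 (adjusted p = 7.5e-04). Gpx7 had 294, 305 and 249.5 in Wt and 672, 521 and 745 in Fn, a log2 change of 1.18 (adjusted p = 2.1e-04). Gpx1, the common cytosolic form, rose by 0.81, from 2575, 2313 and 1916 to 4096, 3263 and 4639.8.

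The secreted Gpx3 did not pass, and its Wt arrays were spread widely. Its signals were 497, 1207 and 909 in Wt and 1172, 1118 and 1307 in Fn, so Wt replicate 2 overlapped the Fn arrays, with a log2 change of 0.55 (95% interval -0.04 to 1.14, adjusted p = 0.096). It passed as higher once Wt replicate 2 was left out. Gpx5, the peroxidase of the epididymis, the duct joined to the testis, was too dim to be tested, with signals of 26.8 to 56 over the 6 arrays, as were Gpx2 of the gut lining and Gstp3.

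The 3 peroxiredoxins that a probe set names alone rose, and others were not analysed here. Prdx3, the mitochondrial form, had signals of 2235, 2049 and 1734 in Wt and 4175, 3342 and 4546 in Fn, a log2 change of 0.999 (adjusted p = 1.7e-04). Prdx2, a cytosolic form abundant in red cells, had 4295, 4525 and 3601 in Wt and 7316, 7823 and 8673 in Fn, a log2 change of 0.94 (adjusted p = 4.8e-05). A second Prdx2 probe set was erratic in both genotypes, from 86.6 to 1031, and did not pass. Prdx4, the form of the endoplasmic reticulum, had 3450.4, 3302 and 2855 in Wt and 5833, 5687 and 6251 in Fn, a log2 change of 0.89 (adjusted p = 3.2e-05). In each of these the Fn arrays lay above the Wt arrays.

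Of the glutaredoxins, Glrx, the cytosolic form, rose by 0.88 on the log2 scale, from 253, 229 and 254 in Wt to 472, 382 and 511 in Fn. Glrx5, which serves iron-sulphur cluster assembly in mitochondria, had signals of 2106, 2423 and 1958 in Wt and 3315, 3355 and 3135 in Fn, a log2 change of 0.60 (adjusted p = 5.1e-04). Glrx2 of mitochondria had a log2 change of -0.01 (95% interval -0.27 to 0.26, adjusted p = 0.97). The probe set that names Glrx3 alone was dim, with signals of 48.4 to 85.

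**Figure D3:**
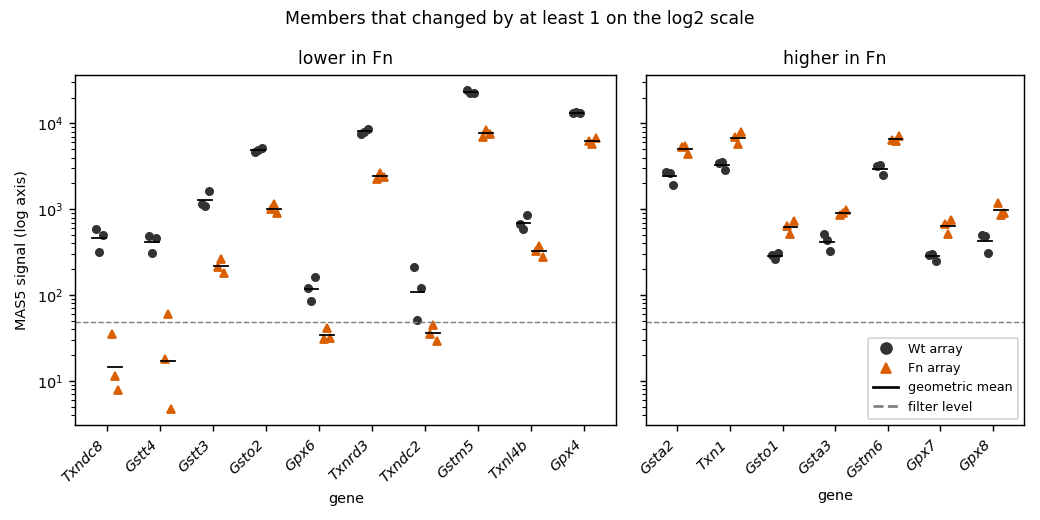
Signals (log axis) for the 10 members lower (left) and 7 members higher (right) in Fn testes by at least 1 on the log2 scale, shown per array, Wt as circles and Fn as triangles (3 each),. Ticks mark each genotype's geometric mean, with the filter level of 48.0 as a broken line. In every gene shown the Fn points lie wholly below or wholly above the Wt points, and the Fn means of Txndc8, Gstt4, Gpx6 and Txndc2 lie under the filter level.

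Start-site windows, 250 bases before to 50 after each RefSeq start on assembly GRCm38.p6, were read for the members because the members split into lower and higher genes. A window was found for 11 of 12 lower members and 27 of 30 higher members. The windows were searched on both strands for the cAMP response element (CRE) TGACGTCA, bound by CREM-family factors, for its core TGACG, which every full CRE holds, and for the antioxidant response element (ARE) core TGACNNNGC, bound by NRF2, which can overlap the CRE core. A gene was counted if any of its windows held a match, so genes with more starts had more chances. Over 27025 genes with a window the CRE was found in 2.03%, its core in 23% and the ARE core in 14%. The CRE was found in 1 of 11 lower members, Txnl4b, and in 0 of 27 higher members. The CRE core was found in 5 of 11 lower members (45.5%) and in 6 of 27 higher members (22.2%). Those 5 lower members were Gpx4, Gpx6, Gstm5, Txndc9 and Txnl4b. The ARE core was found in 2 of 11 lower members (18.2%), Gstm5 and Txndc2, and in 4 of 27 higher members (14.8%). Those 4 higher members were Gsta3, Gstm7, Mgst1 and Txndc5. A match is a description of letters and not a binding site.

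The windows of 3 lower members with a match, of Txndc8, which has none of these motifs, and of the higher member Gsta3 are shown in gene direction, with the CRE or its core in capitals in Txnl4b, Gstm5 and Gpx6 and the ARE core in capitals in Gsta3. They lie at chr8:109565642-109565941 (plus strand) for Txnl4b, where the CRE begins 33 bases before the start, at chr3:107895604-107895903 (plus) for Gstm5, whose core begins at the 16th base after the start and whose ARE core is left in lower case, at chr13:21311953-21312252 (plus) for Gpx6, where the core begins 11 bases before the start, at chr4:58009077-58009376 (minus) for Txndc8, and at chr1:21240335-21240634 (plus) for Gsta3, where the ARE core begins 121 bases before the start.
Txnl4b: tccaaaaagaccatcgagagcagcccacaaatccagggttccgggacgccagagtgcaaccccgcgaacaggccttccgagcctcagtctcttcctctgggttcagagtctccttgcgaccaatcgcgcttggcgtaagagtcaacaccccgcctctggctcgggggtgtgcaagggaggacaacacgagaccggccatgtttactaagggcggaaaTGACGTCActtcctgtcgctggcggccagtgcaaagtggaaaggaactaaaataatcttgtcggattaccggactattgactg
Gstm5: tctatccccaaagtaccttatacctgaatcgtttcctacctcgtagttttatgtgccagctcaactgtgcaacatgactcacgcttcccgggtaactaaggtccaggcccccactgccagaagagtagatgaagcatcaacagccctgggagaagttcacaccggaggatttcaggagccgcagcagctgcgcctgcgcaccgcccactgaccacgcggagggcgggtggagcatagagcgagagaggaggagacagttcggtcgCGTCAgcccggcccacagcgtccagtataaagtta
Gpx6: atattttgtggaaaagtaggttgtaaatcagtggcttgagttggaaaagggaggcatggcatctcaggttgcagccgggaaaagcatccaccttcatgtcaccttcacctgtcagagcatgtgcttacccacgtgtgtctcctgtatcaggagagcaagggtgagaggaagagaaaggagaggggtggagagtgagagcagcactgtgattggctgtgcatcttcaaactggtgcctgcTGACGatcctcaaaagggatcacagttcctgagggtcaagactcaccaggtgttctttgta
Txndc8: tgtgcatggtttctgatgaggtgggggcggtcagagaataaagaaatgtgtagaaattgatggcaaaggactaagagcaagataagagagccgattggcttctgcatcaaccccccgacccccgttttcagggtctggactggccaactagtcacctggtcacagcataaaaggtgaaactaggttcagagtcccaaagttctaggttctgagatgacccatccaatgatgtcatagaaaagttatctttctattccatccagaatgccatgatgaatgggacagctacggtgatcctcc
Gsta3: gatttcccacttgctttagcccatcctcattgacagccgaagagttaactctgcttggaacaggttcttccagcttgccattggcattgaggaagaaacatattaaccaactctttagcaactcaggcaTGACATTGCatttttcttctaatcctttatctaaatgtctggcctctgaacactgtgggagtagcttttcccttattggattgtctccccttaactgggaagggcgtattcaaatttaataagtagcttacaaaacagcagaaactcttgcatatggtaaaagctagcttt

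The other genes of these pathways, from lists of 76 symbols of which 63 were tested, also went both ways. Of those tested, 17 fell and 34 rose, 27.0% and 54.0%, beside 24.7% and 44.9% of all genes tested. Their median log2 change was 0.52, beside 0.32 for all genes. With both genotypes at or over the filter level, 16 of 61 fell and 34 rose, 26.2% and 55.7%. The shares of all such genes were 23.4% and 46.5%. The counts of each list below are to be read beside the shares of 24.7% and 44.9% of all genes tested. Of 9 genes that supply NADPH, the fuel of both reductase systems, 7 rose and 1, Nnt, fell. Nnt, a mitochondrial transhydrogenase that the C57BL/6J substrain is known to lack in part, had a mean of 1950.0 ± 145 (SD, n = 3) in Wt and of 844 ± 122 (SD, n = 3) in Fn. The log2 change was -1.22 (adjusted p = 4.0e-05), and the sources used here do not give the substrain of these mixed mice. Taldo1 of the pentose phosphate pathway rose by 1.26. Of 16 genes of glutathione synthesis and turnover, 4 fell and 5 rose. Gsr, which recycles oxidised glutathione, rose by 1.07, and Gclc, the rate-limiting enzyme of synthesis, did not pass (log2 change -0.17, adjusted p = 0.19). Hagh, which frees glutathione in the last step of methylglyoxal removal, fell by 1.79. All 3 transport genes tested, Abcc1, Abcc4 and Slc3a2, rose.

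Of 14 genes of redox repair and of other thioredoxin-fold proteins, 4 fell and 7 rose. Nme8, the sperm tail thioredoxin also known as Txndc3, had a mean of 868 ± 90.2 (SD, n = 3) in Wt. In Fn the mean was 10.6 ± 8.64 (SD, n = 3), a fall of at least 18.0-fold to the filter level (adjusted p = 4.1e-06). With its Fn mean under that level, Nme8 had to differ to be tested at all, so its call adds little. Nxn, nucleoredoxin, fell by 2.22. Of 10 genes of selenoprotein synthesis and selenoproteins outside the members, 5 fell and 4 rose, and Sephs2, which makes the selenium donor, fell by 0.91 (adjusted p = 1.1e-05). Of 11 genes that remove superoxide and peroxide or act with the NRF2 regulator, 3 fell and 8 rose. Catalase (Cat) rose by 1.15, Sod1 by 0.79 and Nfe2l2, which encodes NRF2, by 0.94, while Keap1, its inhibitor, fell by 0.81 and the mitochondrial Sod2 by 0.54.

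Cell type markers moved with both groups of members. All 7 pachytene spermatocyte markers, all 6 round spermatid markers and 5 of 6 tested elongating spermatid markers fell, beside 24.7% of all genes tested. Those 5 elongating markers had Fn means under the filter level, as had Acrv1 and Catsper3 of the round list and Ccna1 of the pachytene list. Such genes had to differ to be tested at all, so their calls add little to these counts. Tnp1 and Tnp2 of the elongating list were too dim to be tested, and Prm1 did not pass. Summed signals of the pachytene list were 66588 to 73735 in Wt and 14858 to 21388 in Fn. Summed signals of the round spermatid list were 15998 to 18922 in Wt and 1954 to 2378 in Fn, and those of the elongating list 2410.0 to 4487 and 185 to 233. Smcp, of the sperm mitochondrial capsule, fell at least 23.7-fold to the filter level. Of the lists that rose, all 6 spermatogonial markers and all 8 peritubular and stromal markers were higher. So were 7 of 8 Sertoli markers, beside 44.9% of all genes tested. Summed signals were 4503 to 5550 in Wt and 9240 to 10506 in Fn for the spermatogonial list, 14219 to 16633 in Wt and 25678 to 28939 in Fn for the Sertoli list and 15645 to 19979 and 32782 to 33971 for the peritubular and stromal list. Leydig (2 of 4), macrophage (3 of 6, with Aif1 lower), endothelial (1 of 5) and adipocyte (2 of 3) markers rose in part, and of 4 epididymal markers Rnase10 fell. Summed signals ran from 6051 to 10021 in Wt and 6001 to 11818 in Fn for the Leydig list, 3023 to 3824 and 3870.3 to 4999 for the macrophage list, 553 to 676 and 760.5 to 799.7 for the endothelial list, 620 to 2158 and 2438 to 4648 for the adipocyte list and 526 to 1920 and 1093 to 2753 for the epididymal list. Of 3 red cell markers on the array 1, Alas2, was bright enough to be tested and rose, with sums of 179 to 184 in Wt and 233 to 310 in Fn. No marker was listed at 0. The part of these cell types in the members' changes was not tested.

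**Figure D4:**
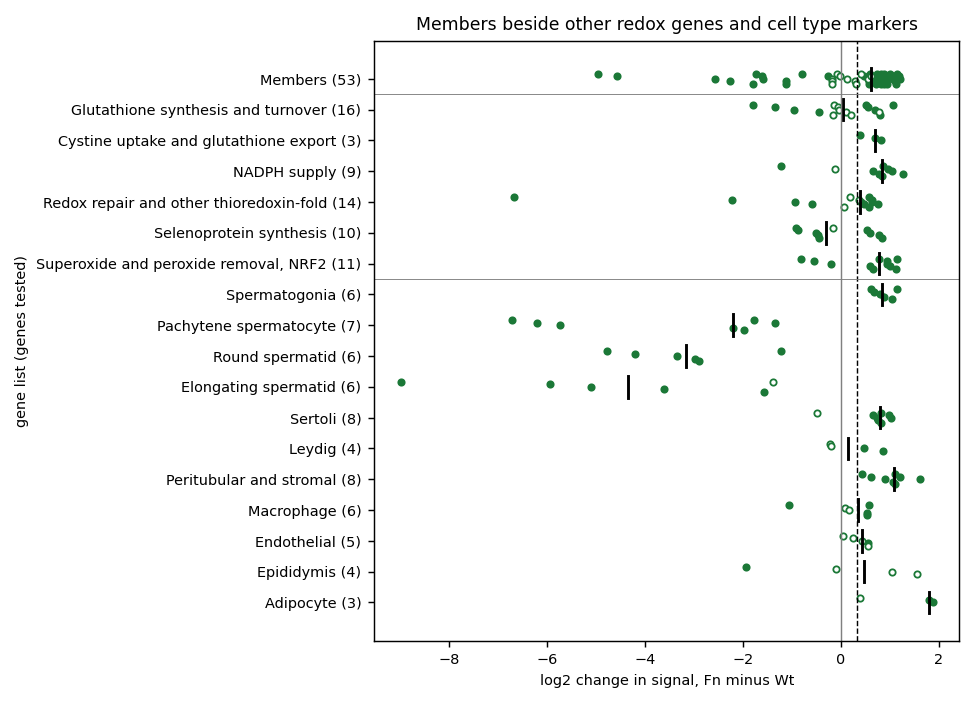
Change on the log2 scale (Fn minus Wt) for tested members (top row), other redox genes (middle rows) and cell type markers (bottom rows), from 3 arrays per genotype. Solid dots are genes under the adjusted p threshold of 0.05, hollow dots the rest, thick ticks mark each list's median, the solid vertical line marks 0 and the broken one the all-gene median of 0.32. List medians are 0.62 for the members, 0.84 for spermatogonia, 0.79 for Sertoli cells, -2.20 for pachytene spermatocytes, -3.17 for round and -4.35 for elongating spermatids.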

How the data were processed

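Total RNA of testes, 3 samples of each genotype from different RNA preparations, was run by the authors on one-colour arrays. The deposited values are MAS5 signals, one linear intensity for each probe set; the submitters' processing notes give the name MAS5 and no version. The arrays had been scaled before deposit, with means of 498.4 to 498.6 after trimming 2% at each end. The study's methods name GeneSpring and no test for this array.

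Log2 signals (1 value of 0 set to 0.1) entered limma 3.58.1 under R 4.3.3 (lmFit, then eBayes with its trend option) as Fn minus Wt. Of 45037 probe sets, 27022 had a mean log2 signal reaching the 40th percentile, which is 48.0 in signal. Benjamini-Hochberg adjustment covered all of them, with a threshold of 0.05. The steps were tested on simulated data. Genes came from GEO's platform annotation, where 34945 probe sets name 1 gene, 932 several and 9160 none. Left out were 10 probe sets that name a member symbol beside another gene. Identifiers matched RefSeq with 0 symbols updated. A fold against a group under the filter level is given as "at least", the brighter geometric mean over that level.

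Described one by one are Txndc2, Txndc8, members changed by at least 1 on the log2 scale without overlap and the brightest of each family. Others are named within their family, chosen with values seen, as are some genes of other lists. Members, lists and tests were chosen with earlier results of these data known. Same-numbered Wt and Fn arrays deviated together (correlations of 0.12 to 0.16, other pairs -0.15 to 0.04), so the numbers were taken to pair samples, from the values alone. The main model did not use this pairing, so the p-values and intervals given above are unpaired. The pairing entered only as a replicate block among the alternatives. Alternatives covered scaling, filter, pseudocount, prior variance, array weights, probe set, threshold, replicate block and single arrays.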

Additional observations from a re-analysis of the deposited data

How the results depend on the processing

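With the numbers of the arrays as a replicate block (paired), 12 members were lower and 30 higher, the same genes, so the block changed no call of a member. It gave 3410 lower and 6165 higher genes in all, beside 3328 and 6034 without it, and 17 and 34 of the other pathway genes. No member that passed in one direction passed in the other under any alternative. Of 404 values of individually described members, 394 kept their direction and side of the threshold, and the other 10 kept direction only: Txndc9 in 5, Txndc2 in 3, and Prdx2 and Mgst1 with probe sets averaged (log2 changes of 0.53 and 0.04). Averaging also lost Mgst3, Txndc15, Txnl1 and Txnl4a, median centring lost Txndc5, and the 60th percentile filter left Gpx6, Gstt4, Txndc2 and Txndc8 untested. New calls were Txndc12, Txn2 and Gstz1 lower with 75th percentile centring (15 lower members), Gstz1 lower after quantile normalization, Txndc11 higher with averaging, Gpx3 higher without Wt replicate 2, and Gstm3 higher in 5 settings. Genes called higher in all numbered 4456 with median centring, 5065 with 75th percentile centring and 5444 after quantile normalization, and other pathway genes 27, 32 and 33. For all genes the median was 0.25 after quantile normalization, 0.17 with arrays centred on medians, 0.19 on 75th percentiles, 0.29 with no filter, 0.30 with the 60th percentile filter or a pseudocount of 16, 0.31 with array weights or averaged probe sets, 0.33 with both genotypes at or over the filter level (chosen after seeing the data), and 0.30 to 0.34 without single arrays. For the members it was 0.46 (median centring), 0.49 (75th percentiles), 0.74 (60th percentile filter), 0.55 (averaged probe sets), 0.72 (both genotypes over the level) and 0.60 to 0.75 without single arrays. For the other pathway genes it was 0.42 (quantile), 0.36 (median centring), 0.39 (75th percentiles), 0.55 (averaged probe sets) and 0.46 to 0.49 without single arrays. Signals near the filter level limit Txndc2, Gpx6 and the Fn values of Txndc8 and Gstt4.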
